A study of Homo sapiens with 8 samples.

Results

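FLI1 ChIP-Seq in 2 cell lines gave 1975 sites that were called in both lines, by the second replicate of each, and missed in VAL replicate 1. They are referred to here as members. A member is a VAL replicate 2 peak with a -log10 q of at least 3 that overlapped such a peak of OCI-Ly1 replicate 2 by 1 bp or more and overlapped no such peak of VAL replicate 1. The members were chosen by these values, which are therefore described without a test. They made up 30.5% of the 6474 VAL replicate 2 peaks that passed the threshold. Another 583 passing peaks were found in all 3 libraries, 3826 in VAL replicate 2 alone and 90 in both VAL replicates but not in OCI-Ly1.

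OCI-Ly1 and VAL are established cell lines of germinal center B-cell type (GCB) diffuse large B-cell lymphoma (DLBCL). Both were immunoprecipitated with a rabbit polyclonal anti-FLI1 antibody with no treatment, in 2 replicates per line, and input DNA served as the control and was not analysed here. Nothing in the labels says that the replicates came from separate cultures. The list of OCI-Ly1 replicate 1 held 37 intervals, of which 1 passed, and could not be used, so a site of both lines rests on 1 OCI-Ly1 library. In the other lists, 5354 of 1107379 peaks passed in OCI-Ly1 replicate 2, 6474 of 986629 in VAL replicate 2 and 973 of 237178 in VAL replicate 1. Peak lists hold no expression, so the identity of the cells was not checked against marker genes.

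FLI1 is a transcription factor of the ETS family, whose proteins share a DNA-binding domain that recognises a GGAA core. The bases around the core separate classes of ETS factors, and FLI1 prefers CCGGAA followed by A or G. In blood cells, FLI1 is known for its part in the differentiation of megakaryocytes, stem cells and B lymphocytes. Many ETS factors bind the same promoters, close to the start of transcription of genes that most cells use. A peak marks where fragments bound by the antibody pile up, and its summit is the highest point of the pile.

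The sequences at 8 members are shown because the ETS motif lay beside the summit of each. GTF2IRD2, DNAAF2, SNRPB2 and SAXO1 belong to the strongest members, PSMG3 holds motifs that overlap on opposite strands, RIPK1 holds a repeated motif, and TRAF4 and ATM are genes of the signalling and repair lists. The SAXO1 peak is also within 3 kb of RRAGA. The bases are from the plus strand of GRCh37, and capitals mark CCGGAA followed by A or G on either strand.
GTF2IRD2, chr7:74267909-74267969: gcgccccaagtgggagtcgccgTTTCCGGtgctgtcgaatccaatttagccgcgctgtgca
DNAAF2, chr14:50101119-50101179: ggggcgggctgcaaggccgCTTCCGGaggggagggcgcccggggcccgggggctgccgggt
SNRPB2, chr20:16710563-16710623: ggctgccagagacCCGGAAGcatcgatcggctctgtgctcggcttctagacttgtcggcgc
SAXO1, chr9:19049362-19049422: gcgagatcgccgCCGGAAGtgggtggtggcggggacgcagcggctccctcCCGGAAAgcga
PSMG3, chr7:1609699-1609759: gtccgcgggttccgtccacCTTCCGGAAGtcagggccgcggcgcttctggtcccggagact
RIPK1, chr6:3069177-3069237: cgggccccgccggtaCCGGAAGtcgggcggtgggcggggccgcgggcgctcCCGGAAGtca
TRAF4, chr17:27070957-27071017: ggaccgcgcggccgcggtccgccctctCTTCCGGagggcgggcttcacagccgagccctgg
ATM, chr11:108093746-108093806: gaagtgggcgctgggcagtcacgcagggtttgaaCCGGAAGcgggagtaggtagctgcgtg

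The next 5 members lacked this motif but held the related hexamer AGGAAG on either strand, marked in capitals. They are an intronic site of FMNL3 and sites at genes of lymphocyte signalling and B lineage control. The hexamer was not particular to such genes. Windows of the same length also held it at RPL6 and F11R, among others. At CD79A, PIK3CD, ITGA4 and EZR they held neither it nor the motif.
FMNL3, chr12:50056918-50056978: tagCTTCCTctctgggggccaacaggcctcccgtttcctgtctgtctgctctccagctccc
LTB, chr6:31550292-31550352: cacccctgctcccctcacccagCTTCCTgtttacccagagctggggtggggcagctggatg
SPIB, chr19:50923004-50923064: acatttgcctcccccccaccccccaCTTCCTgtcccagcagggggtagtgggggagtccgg
NFKB1, chr4:103422437-103422497: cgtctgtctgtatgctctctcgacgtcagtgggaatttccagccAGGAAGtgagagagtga
PTPN6, chr12:7068417-7068477: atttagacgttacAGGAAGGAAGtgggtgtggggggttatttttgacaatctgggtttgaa

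Members were weak to moderate peaks in the libraries that chose them. In VAL replicate 2 their fold enrichment ranged from 1.13 to 22.8 with a median of 6.90, and their -log10 q from 3.003 to 79.1 with a median of 6.56. In OCI-Ly1 replicate 2 the median fold was 7.02 and the median -log10 q was 6.84, with a highest value of 133.9. The smaller of both -log10 q values was under 5 at 982 members and 10 or more at 267. Sites found in all 3 libraries were stronger, with a median VAL replicate 2 fold of 11.7 and -log10 q of 17.5, and sites of VAL replicate 2 alone were weaker, at 5.48 and 3.87. The fold compares the height of a peak with the background around it, as the authors' peak caller gave it. Since fold and p-value of a peak fix the reads at its summit, these could be recovered for 1974 members, whose quartiles in VAL replicate 2 were 7, 9 and 13 reads over a median background of 0.3995 reads. Counts this low carry a large counting error.

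**Figure D1:**
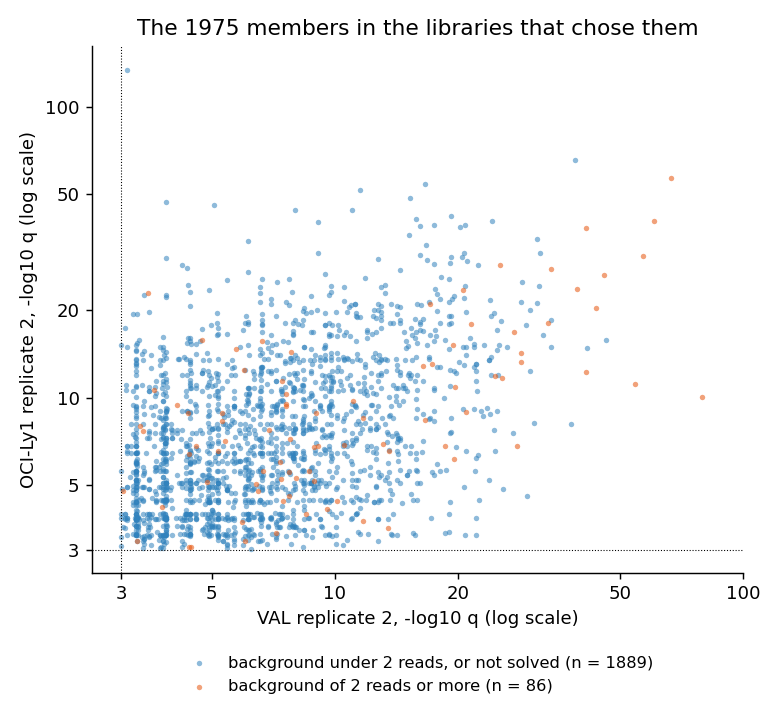
The -log10 q of each of the 1975 members in VAL replicate 2 (x axis) and OCI-Ly1 replicate 2 (y axis), both on a log scale, with dotted lines at the threshold of 3. Points are members, blue with a local background under 2 reads or not solved (1889) and orange with 2 reads or more (86), and the highest VAL replicate 2 value, 79.1, is an orange point.

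At the threshold itself, the members just inside included DCP1A, a decapping factor, and a site in a UTR on chromosome 22, each with a VAL replicate 2 -log10 q of 3.003. The peaks just outside lay at PIK3CD-AS2, ARHGEF12 and ZNF641, each with an OCI-Ly1 replicate 2 -log10 q of 2.993 beside 3.65, 3.79 and 7.42 in VAL replicate 2.

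The strongest members fell into 2 kinds. With a local background under 2 reads they were mostly promoters with the motif. GTF2IRD2 (peak at chr7:74267466-74268198), which encodes a transcription factor of the TFII-I family, had a -log10 q of 38.9 in VAL replicate 2, 65.6 in OCI-Ly1 replicate 2, with 2.63 in VAL replicate 1. GTF2IRD2 has a near-identical copy in the genome, so its reads are uncertain. DNAAF2 (chr14:50100219-50102031), a factor for the assembly of ciliary dynein arms, had 31.8, 31.5 and 1.10 in the same order. SNRPB2 (chr20:16710332-16710903), a protein of the U2 small nuclear ribonucleoprotein, had 31.2, 35.1 and 2.83. All 3 genes lay above 30 in both chosen libraries and under the threshold in VAL replicate 1. UBE2F, an E2 enzyme for the ubiquitin-like protein NEDD8, had 31.6, 24.2 and 0. MDM4, a negative regulator of p53, had 24.0 and 21.7 with no listed peak in VAL replicate 1, which throughout means none that overlapped the member. NDUFC1, a subunit of respiratory complex I, had 28.5 and 21.4 and also lacked a listed peak. The strongest distal member with low background lay 5028 bp from the nearest start site of FMNL3, a formin that acts on the actin cytoskeleton, within an intron, with 28.8, 24.99 and 1.22. That peak spans chr12:50056816-50057803 and lacked the motif.

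The other kind of strong member lay where the background was high. Of the members, 86 (4.35%) had a local background of 2 reads or more in VAL replicate 2, a limit set after the values were seen. The share was 9.78% at sites of all 3 libraries and 0.915% at sites of VAL replicate 2 alone. The 86 members carried a median of 32.5 reads over a background of 5.16, against 9 reads over 0.385 at the other members. The members AL161626.1, MIR663AHG and RNA5-8SP5 were of this kind, and 54 of the 86 lay in 10 stretches of 3 or more members with gaps under 100 kb. The longest runs were 11 members in 105 kb of chromosome 8 at REXO1L pseudogenes, 9 in 50.5 kb of chromosome 4 and 8 in 27.3 kb of chromosome 2 at pieces of ribosomal RNA genes. Another run of 3 lay at 5S ribosomal RNA genes of chromosome 1. The motif was found at 1 of the 86, AL161626.1 (1.16%, Wilson 95% interval 0.206 to 6.30%) and at 965 of the other 1889 (51.1%, 48.8 to 53.3%). A coding promoter lay at 5 of the 86 and at 1516 of the other 1889. REXO1L and ribosomal RNA genes occur in many copies, and the part of copy number and mapping in these peaks was not tested. The member without solved reads, counted with the others, had a fold of 1.13.

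In VAL replicate 1 the values at members lay below the threshold by the rule. A listed peak of any q overlapped 1203 of the 1975 (60.9%, 58.7 to 63.0%), and its -log10 q was under 1 at 616, from 1 to 2 at 379 and from 2 to 3 at 208. At sites of VAL replicate 2 alone, a listed peak overlapped 1288 of 3826 (33.7%, 32.2 to 35.2%), and the median -log10 q there was 0.382 against 0.980 at members. The list of VAL replicate 1 holds fewer peaks than the others, a listed peak can have a -log10 q of 0, and neither an entry nor its lack was tested as binding. The listed VAL replicate 1 summit lay a median of 38 bp from the VAL replicate 2 summit at members, 20 bp at sites of all 3 libraries and 81 bp at sites of VAL replicate 2 alone. The motif lay within 50 bp of the listed VAL replicate 1 summit at 534 of 1203 members (44.4%) and at 182 of 1288 sites of VAL replicate 2 alone (14.1%).

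The VAL libraries had like reads at these sites and unlike backgrounds. At the 1162 members that were listed in both and had a VAL replicate 2 background under 2, the median was 10 reads in each replicate, with quartiles of 8 and 13 in each. The local background was higher in VAL replicate 1 at all 1162, with a median of 2.51 reads against 0.385 in VAL replicate 2. Relative to the most common background of each library, 0.526 and 0.278 reads, these medians were 4.77 and 1.39 times as high. The same held at the 526 sites of all 3 libraries, where the medians were 19 reads over 2.34 in VAL replicate 1 and 17 reads over 0.448 in VAL replicate 2. A member enters this comparison only if it was listed, which takes reads above background in VAL replicate 1, and read totals per library were not analysed here.

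Among sites of both lines with a background under 2, the share that passed in VAL replicate 1 was higher where VAL replicate 2 had more reads. It was 3.85% of 545 sites with 6 or 7 reads, 7.29% of 700 with 8 to 10, 22.2% of 681 with 11 to 15 and 62.1% of 488 with 16 or more. The rest of each class were members, and their listed shares were 48.5%, 60.1%, 69.8% and 80% in the same order. Sites of VAL replicate 2 alone had listed shares of 27.7%, 40.9%, 58.1% and 65.4%. These shares rest on the thresholds that define the classes and were not tested. The sites with the highest VAL replicate 1 values under 3 included STOML2, a mitochondrial membrane protein, TRIM13, a ubiquitin ligase, and TVP23B, each with a -log10 q of 2.997 and 13 reads over 2.01.

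**Figure D2:**
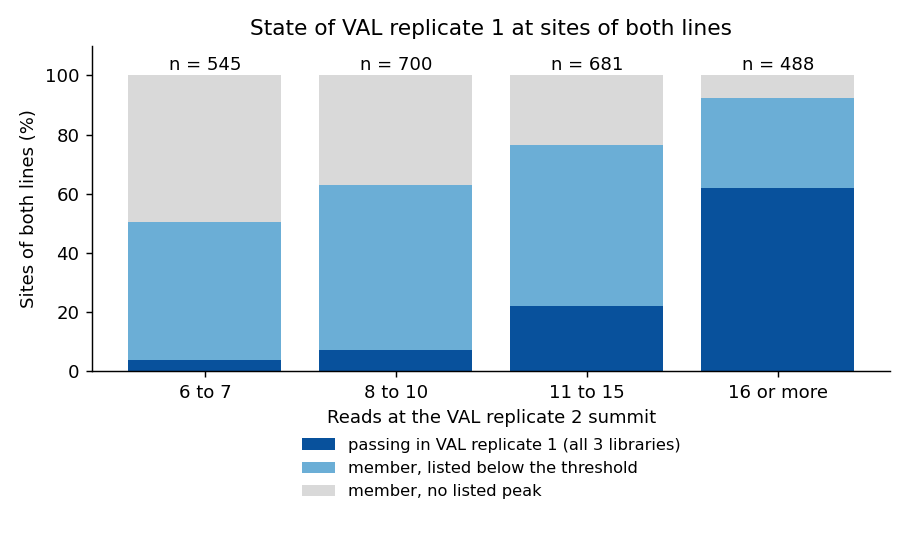
Sites called in VAL replicate 2 and OCI-Ly1 replicate 2 with a background under 2 reads, by reads at the VAL replicate 2 summit (x axis), as the share (y axis, %) that passed in VAL replicate 1, was listed below the threshold or was not listed. The passing share goes from 3.85% to 62.1%, and n is the number of sites.

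The positions of the peaks were close between the lines. The VAL replicate 2 summit of a member lay a median of 33 bp from the nearest passing OCI-Ly1 replicate 2 summit, within 50 bp at 65.1% and within 100 bp at 80.9%. At members with the motif the median was 25 bp and at those without it 46 bp. Sites of all 3 libraries had a median of 19 bp. Reads at the summit were within 2-fold of each other between the lines at 1837 of 1973 members (93.1%), as read from uncorrected counts. The rule favours such likeness, since a member had to pass in both libraries, where it had at least 6 reads. Overlap of 1 bp also joined some peaks with distant summits, of which the largest gap was 4436 bp. DDX5, an RNA helicase, was such a site and was picked after its values were seen. It had 6 reads in VAL replicate 2 and 71 in OCI-Ly1 replicate 2, a -log10 q of 3.10 against 133.9, and summits 1276 bp apart.

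Members lay mainly at promoters, defined as within 3 kb of an annotated start site of transcription (TSS). The peak centre was at a promoter at 1695 of 1975 members (85.8%, 84.2 to 87.3%), in an intron at 131 and intergenic at 140, while 5 lay in a UTR and 4 in another exon. Sites of all 3 libraries had a promoter share of 83.2%, 2.63 points lower, which was not past the threshold (two-sided Fisher's exact test, Benjamini-Hochberg adjusted p = 0.145 over 8 tests). Without the peaks of high background the members were 0.146 points lower instead. Sites of VAL replicate 2 alone had a share of 55.8%, 30 points lower than members (exact test, adjusted p = 2.10e-125). Regions of a library are not replicates, so these p-values cover counting over regions and not the spread between cultures. Of the promoter members, 1521 (89.7%) lay at a protein-coding gene and 94 at a lncRNA without a coding TSS nearby. Their summit was within 50 bp of a TSS at 941 (55.5%) and within 500 bp at 1502 (88.6%). These shares were 56.3% and 89.3% at promoter sites of all 3 libraries, and 26.7% and 65.0% at those of VAL replicate 2 alone. Coding genes on opposite strands started within 1000 bp of 281 promoter members (16.6%), so at these the gene cannot be assigned. That share was 15.7% at promoter sites of all 3 libraries and 8.01% at those of VAL replicate 2 alone. The median GC content of the motif windows was 67.3% at members, 66.3% at sites of all 3 libraries and 63.4% at sites of VAL replicate 2 alone, and its part in the motif shares was not tested. Over the autosomes the members were 20.1% of the passing VAL replicate 2 peaks of chromosome 10 at the lowest and 40.3% of those of chromosome 7 at the highest.

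The ETS motif was concentrated at the summits. It lay within 50 bp of the VAL replicate 2 summit at 966 of 1975 members (48.9%, 46.7 to 51.1%) and in a window of the same length 250 bp away at 75 (3.80%). The window at the summit alone held it at 938 members and the distant window alone at 47 (two-sided exact McNemar test, adjusted p = 1.20e-215 over 3 tests). Promoter members held it at 52.9% of summits and 3.83% of distant windows (exact test, adjusted p = 1.31e-203), and distal members at 25% and 3.57% (exact test, adjusted p = 7.26e-14). As a background, windows of the same length centred on 19799 start sites of coding genes held the motif at 10.3%. The centre of the nearest motif was a median of 15 bp from the summit, and within 20 bp at 624 of 966. In OCI-Ly1 the motif lay by the summit at 994 members (50.3%), and it lay by both summits at 816. Beside the coding TSS, 769 members had a motif within 1000 bp of the canonical start, on the strand of the gene at 377 (49.0%), upstream of it at 527 (68.5%) and within 100 bp of it at 532 (69.2%).

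**Figure D3:**
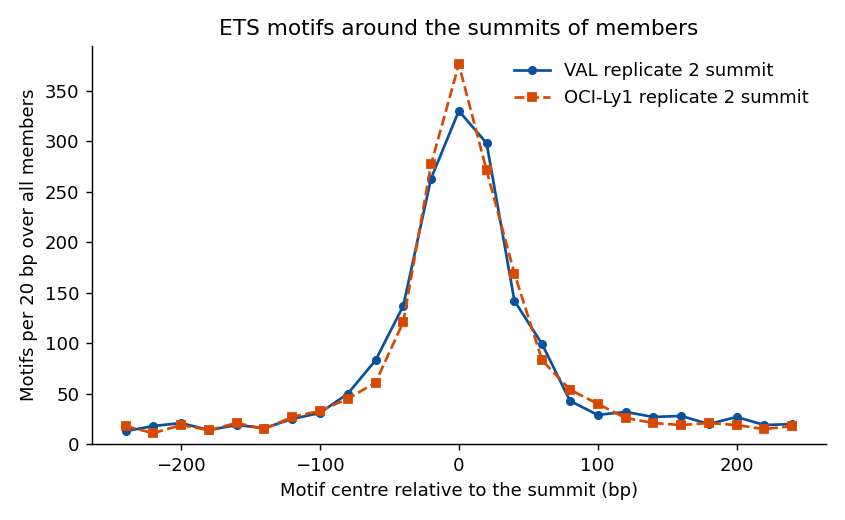
Motif centres per 20 bp (y axis) by distance from the summit in bp (x axis) over all members, for VAL replicate 2 summits (solid) and OCI-Ly1 replicate 2 summits (dashed). Both peak in the central 20 bp, with 330 and 376 motifs, and lie between 11 and 27 per 20 bp beyond 190 bp on either side.

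The share of summits with the motif placed the members between the other classes. Sites of all 3 libraries held it at 55.9%, 7.01 points above the members (exact test, adjusted p = 0.00399), and at promoters at 63.5%, 10.6 points above (exact test, adjusted p = 5.35e-05). At distal sites the shares were 18.4% of 98 and 25% of 280, a difference not past the threshold (exact test, adjusted p = 0.212). Sites of VAL replicate 2 alone held the motif at 13.8%, 35.1 points below the members (exact test, adjusted p = 3.59e-177). The difference remained at promoters, with 426 of 2135 against 52.9% (exact test, adjusted p = 7.15e-101), and at distal sites, with 6.03% against 25% (exact test, adjusted p = 2.71e-19). The share was higher at stronger peaks without a test of the trend, and at promoter members it was 40.8% for a -log10 q of 3 to 5, 54.1% for 5 to 10 and 66.4% for 10 or more. At promoter sites of all 3 libraries the shares in the upper ranges were 63.6% and 64.3%. Among all peaks with a -log10 q from 5 to 10 the members were 3.23 points below the sites of all 3 libraries, which did not pass the threshold (exact test, p = 0.538), and 27 points above the sites of VAL replicate 2 alone (exact test, p = 8.97e-31). With the threshold raised to a -log10 q of 5 in each of the 3 libraries, the members were 0.970 points above the sites of all 3 libraries (exact test, p = 0.757). That setting also counted sites with a VAL replicate 1 -log10 q from 3 to 5 as members, so its classes differ from the main ones.

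**Figure D4:**
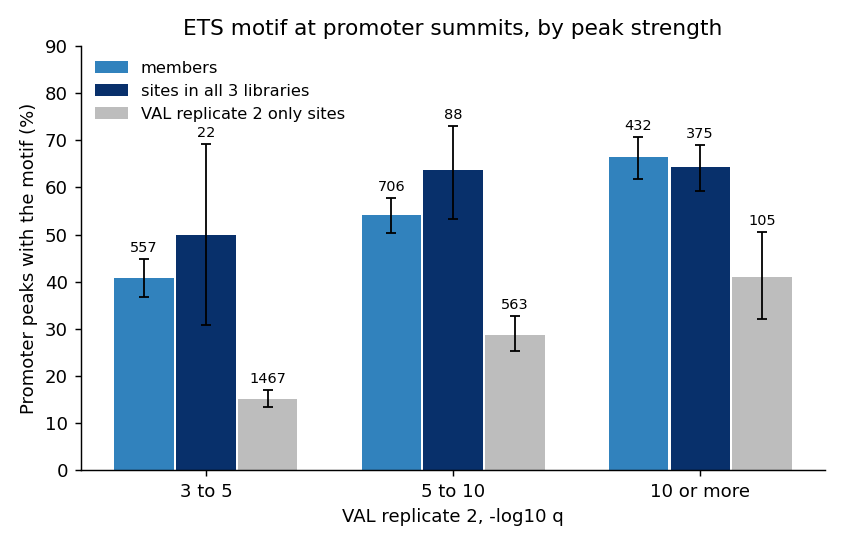
Share of promoter peaks with the motif within 50 bp of the summit (y axis, %) by VAL replicate 2 -log10 q (x axis), for members, sites of all 3 libraries and sites of VAL replicate 2 alone, with Wilson 95% intervals as bars and the number of peaks above. Members go from 40.8% to 66.4%, above the sites of VAL replicate 2 alone in each range.

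Longer forms of the motif followed the same order of classes. CCGGAAGT lay at 19.8% of member summits, 27.1% of those of all 3 libraries and 3.63% of those of VAL replicate 2 alone, and ACCGGAAGT at 5.06%, 11.8% and 0.549%. CCGGAAG was found at 39.6% of members and CCGGAAA at 11.9%. Among members without the motif and with a background under 2, the hexamer AGGAAG, as printed above for FMNL3, LTB, SPIB, NFKB1 and PTPN6, lay at 223 of 765 promoter summits (29.2%) and 48 of 159 distal ones (30.2%). It lay at 22.6% and 17.7% of the corresponding sites of VAL replicate 2 alone. Over all promoter peaks, with or without the motif, AGGAAG lay at 20.8% of members and 20.8% of sites of VAL replicate 2 alone. Over all distal peaks it lay at 23.2% and 17.6%. Windows on coding start sites, also with or without the motif, held it at 13.2%. All these motifs were sought on both strands, and the longer forms overlap the shorter. A match describes the sequence only, and other ETS factors share the core.

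Distal members with low background included sites within introns. F11R, a protein of tight junctions, had a -log10 q of 20.8 in VAL replicate 2, 31.5 in OCI-Ly1 replicate 2, with 1.60 in VAL replicate 1. TUBA1C, an alpha-tubulin, was nearest to a site with 22.2, 13.1 and 0.389. These lacked the motif, whereas the site nearest to MGAT3, an enzyme of N-glycan synthesis, had it at the summit with 15.3, 12 and 1.41. Without high background, 70 of 229 distal members (30.6%) held the motif.

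Members touched the promoters of 1913 of 20149 protein-coding genes (9.49%, the background for the gene lists), against 2.69% for sites of all 3 libraries. The lists were counted by gene and not tested. Several lists of basic cell functions lay above that background. Sites of all 3 libraries also lay above their own background of 2.69% at these lists. Their shares were 8.99% for cytosolic ribosomal proteins, 8.97% for mitochondrial ones, 10% for the proteasome and 8.05% for splicing factors. For the helicases, the translation initiation factors and the list with RNA polymerase they were 3.70%, 5.36% and 6.84%. Of 89 cytosolic ribosomal protein genes, 29 had a member (32.6%, 23.7 to 42.9%), among them RPS20, RPL12, RPL6 and RPL3, and 8 had a site of all 3 libraries. RPL12 had a -log10 q of 11.9 in VAL replicate 2 and 12.8 in OCI-Ly1 replicate 2 with no listed peak in VAL replicate 1, and RPL6 had 11.9, 10.5 and 0.992. These promoters also lie within 3 kb of LRSAM1 and PTPN11. For splicing factors it was 20 of 87 (23%), with SNRPB2, the spliceosome protein PRPF19 and the Sm protein SNRPE, and 15 of their 21 member peaks held the motif. The DDX and DHX helicases had 14 of 54 and the translation initiation factors 13 of 56. A list of RNA polymerase, Mediator, TAF and GTF genes had 27 of 117. Among these were GTF2IRD2 and several TAF11L copies, and 2 peaks at TAF11L copies lay in high background. The proteasome list had 10 of 50, with the motif at 8 of 10 member peaks. The mitochondrial ribosome had 14 of 78, with the motif at 8 of 14 member peaks. Nuclear genes of the respiratory chain had 9 of 90 (10%), at the background. Intervals of the lists with few genes are wide.

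Genes of genome maintenance and chromatin also had members. DNA repair had 15 of 52 (28.8%, 18.3 to 42.3%). A site of all 3 libraries lay at none of this list and at only 2.69% of all coding genes, so few were to be found among 52. PALB2, which links BRCA1 and BRCA2, had 16.8 in VAL replicate 2, 29.8 in OCI-Ly1 replicate 2, with 0.782 in VAL replicate 1 as -log10 q. The PALB2 peak is also within 3 kb of DCTN5. NBN, part of the MRE11 complex, had 14.2 and 13.6 with no listed peak, but its peak lay 1901 bp from the NBN start and within reach of DECR1. ATM, the kinase of the response to double-strand breaks, had 11.01 and 9.54, also with no listed peak, and shares its promoter with NPAT. Replication-dependent histone genes had 19 of 67 (28.4%), which rest on 10 peaks since histone genes lie side by side. C2H2 zinc finger genes had 77 of 515, with the motif at 51 of 78 member peaks. Cell cycle genes had 5 of 43 (11.6%, 5.07 to 24.5%), close to the background, with the pocket protein gene RBL2 and E2F3 the strongest, and the BCL2 family had 0 of 17, which leaves an upper Wilson bound of 18.4%.

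Genes of lymphocyte signalling had members of modest height. The NF-kB and TNF receptor list had 9 of 41 (22%, up to an upper bound of 36.7%). RIPK1, a kinase downstream of TNF receptors whose sequence above holds a repeated motif, had a -log10 q of 12.97 in VAL replicate 2, 13.6 in OCI-Ly1 replicate 2, with 2.01 in VAL replicate 1. TAB2, an adaptor of the kinase TAK1, had 11.01, 5.20 and 0.495. The B cell receptor list had 6 of 37 (16.2%) on 9 peaks, and none of the 9 held the motif. PTPN6, the phosphatase SHP-1, had 7.76, 5.49 and 0.118, and PIK3CD, the delta subunit of PI3-kinase, had 8.95 and 6.47 with no listed peak. Germinal centre and B lineage regulators had 6 of 34, with SPIB, an ETS factor of B cells whose peak is also within 3 kb of POLD1, at 7.39, 10.8 and 1.87. The ETS list had 3 of 28 (10.7%, 3.71 to 27.2%), close to the background, at GABPA, SPIB and ELF2, and the FLI1 promoter held no member.

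Of 44 genes that the study names in its text or drawings, controls included, 16 had a member (36.4%, 23.8 to 51.1%). That list was chosen by the study partly on these samples and is not independent evidence. Their VAL replicate 2 reads ranged from 6 to 14 with a median of 8.5, and those of OCI-Ly1 replicate 2 from 6 to 17 with a median of 8. TRAF4, an adaptor of the TNF receptor family, was the strongest on the smaller value, with a -log10 q of 10.5 in VAL replicate 2 and 16.5 in OCI-Ly1 replicate 2 and no listed peak in VAL replicate 1. NFKB1, the gene of p50, had 12.6, 4.99 and 0.764 in VAL replicate 2, OCI-Ly1 replicate 2 and VAL replicate 1, and NFKB2, the gene of p52, had 6.59, 3.62 and 0.183. At both genes the VAL replicate 2 value was the higher of the lines. CD79A, the signalling chain of the B cell receptor, had 3.74, 3.99 and 0.382, and was the member among 8 genes that mark B cells. LTB, lymphotoxin beta, had 5.68, 3.27 and 1.25. GAPDH, a glycolytic enzyme whose amplification was the negative control of the study in ChIP followed by PCR (the amplified stretch was not compared here), had 8.05, 3.60 and 0.749. WEE1, a kinase that inhibits CDK1, had 3.27 and 5.10 with no listed peak, and DDX21, a nucleolar helicase, had 3.27 and 12.4, also unlisted. In VAL replicate 1, 8 of the 16 had a listed peak that overlapped the member, with a -log10 q between 0.183 and 1.89, and the other 8 had none that overlapped the member. The remaining members of this list were at ITGA4, an integrin subunit (7.90, 10.5 and 0.495), AATF, an inhibitor of apoptosis (9.13, 4.95 and 0.757), and TRAF1, a TNF receptor adaptor (4.56 and 9.54, unlisted). LYN is a Src family kinase, and EZR links actin to the membrane. SLC24A1 is a sodium, potassium and calcium exchanger, and DENND3 an activator of Rab proteins. The members at LYN, EZR, SLC24A1 and DENND3 had values between 3.03 and 5.02 in both libraries and no listed peak. Summits of the lines lay 737 bp apart at LYN and 491 bp at DENND3, whose promoter held another VAL replicate 2 peak with 8.63. The SLC24A1 member is also within 3 kb of INTS14.

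**Figure D5:**
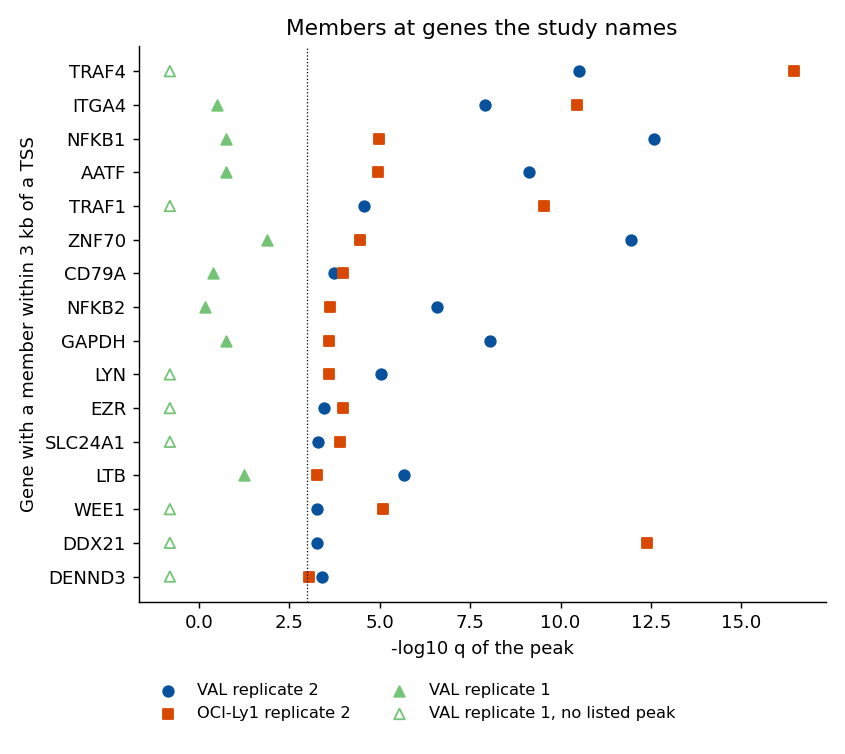
The -log10 q (x axis) of the strongest member at 16 genes that the study names (y axis) in VAL replicate 2 (circles), OCI-Ly1 replicate 2 (squares) and VAL replicate 1 (triangles, open at the left margin where no listed peak overlapped the member), with the threshold of 3 dotted. VAL replicate 1 lies at 1.89 or lower at the 8 genes with a listed peak that overlaps the member, and other listed peaks of these promoters are not drawn.

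The motif was found at 5 of these 16 members, at TRAF4, AATF, TRAF1, DDX21 and WEE1. The summit of the ZNF70 member lay 1461 bp from the nearest ZNF70 start and within reach of VPREB3 as well. Of the 1913 coding genes with a member, 27 (1.41%) also had a site of all 3 libraries at their promoter, against 2.69% of all coding genes. A passing VAL replicate 1 peak of any kind lay at the promoter of 33 of the 1913 (1.73%), against 3.14% of all coding genes. The rule lowers both shares, since a member may not overlap such a peak.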

How the data were processed

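FLI1 ChIP-Seq peak lists were analysed for OCI-Ly1 replicate 2 and VAL replicates 1 and 2. Per the methods, the authors aligned reads to GRCh37 with bowtie2, kept reads with 1 position and a mapping quality of at least 10, and removed duplicates with SAMtools. Peak calling is described with HOMER under an FDR of 0.001, while the submitters' processing notes name CASAVA 1.4, BWA and hg19. The deposited lists have the 10 columns of a MACS2 list, so the caller and control of the lists are not given in the sources used here. The deposited fold enrichment is a ratio of pileup to local background, the deposited -log10 p and -log10 q come from the authors' caller, and the deposited score was not used. All listed peaks of a library were read, and those with a -log10 q of at least 3 passed.

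Reads and background were solved from fold = (reads + 1) / (background + 1) and a Poisson p-value. Positions used GENCODE release 44 on GRCh37. Promoters lay within 3 kb of any TSS of the peak centre, and the motif was sought within 50 bp of the summit. Classes were compared by two-sided Fisher's exact tests (8, Benjamini-Hochberg) and summits with flanks by exact McNemar tests (3), with scipy 1.17.1. The code was tested on simulated data. Wilson 95% intervals cover counting error only, and total read depth was not analysed here.

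Members, gene lists and tests were chosen with earlier results of these data known. Named genes were the 12 members with the highest smaller -log10 q of both libraries, the 3 just inside and the 3 just outside the threshold, 5 with the highest and 5 with no VAL replicate 1 value, those at genes of the study, 4 per gene list, and the 5 strongest distal members and promoter members without the motif. The same ranks without high background, DDX5, and the printed sequences of PSMG3, RIPK1, ATM, SPIB and PTPN6 were chosen after the values were seen. Genes were named by the nearest coding TSS within 3 kb, or without one by the nearest TSS of any type. The score, input libraries and OCI-Ly1 replicate 1 were left out. Alternatives are given in the closing section. Some members that this rule names are not reported here.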

Additional observations from a re-analysis of the deposited data

How the results depend on the processing

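A total of 105 alternative values were computed, of which 74 kept their call: the same direction and side of the threshold for a test, a value within the main 95% interval for a share, or a count within 1.5 times the main count. The motif at the summit against the flank and both comparisons with sites of VAL replicate 2 alone passed their exact tests with the same sign under every alternative run.

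The number of members was 1147 with a threshold of 5 in each library, 772 where no VAL replicate 1 peak was listed and 1235 with an overlap of 50% of both peaks. Genes with a member then numbered 1185, 742 and 1217. The threshold of 5 also counted sites with a VAL replicate 1 -log10 q from 3 to 5 as members. All values given for a -log10 q of 5 rest on these changed classes. Left out in turn, VAL replicate 1 and OCI-Ly1 replicate 2 gave 2558 and 5801 sites, 2428 and 3685 genes, promoter shares of 85.2% and 66.0%, and motif shares of 50.5% and 25.8%. The promoter share was otherwise 87.4% at a -log10 q of 5, 80.8% within 1 kb, 77.0% for coding TSS and 87.9% without high background. The motif share was 58.8% at a -log10 q of 5, 44.8% without a listed VAL replicate 1 peak, 55.2% with summits within 100 bp, 19.8% for CCGGAAGT, 90.1% for GGAA and 58.4% in a window of 100 bp. The share listed in VAL replicate 1 was 73.1% at a -log10 q of 5 and 48.9% without the top of its list.

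The promoter share of members minus that of sites of all 3 libraries was -1.28 points without a listed VAL replicate 1 peak, -2.18 with a fold of at least 4 and -0.146 without high background. It passed the exact test at 4.73 points with an overlap of 50% (p = 0.0282) and at 5.49 for coding TSS (p = 0.00823). For the motif share, the difference was 0.970 points at a -log10 q of 5, -3.87 with summits within 100 bp, -2.68 in the window of 100 bp and -3.23 at a -log10 q from 5 to 10, none past the exact test. It was -13.3 points with a fold of at least 4 (exact test, p = 7.6e-08). Without high background it was -10.3 (exact test, p = 2.64e-05), and without a listed VAL replicate 1 peak -8.15 (exact test, p = 0.000177). The cause of these changes was not tested. Of 111 named members, 36 stayed without a listed VAL replicate 1 peak. The setting without high background was chosen after seeing the data.

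No paired analysis was possible because the list of OCI-Ly1 replicate 1 could not be used and the comparisons are over regions. The motif comparison with sites of VAL replicate 2 alone was not run at OCI-Ly1 summits, since those sites have none. Members rest on 1 library per line. Passing peaks start at 6 reads in the second VAL replicate against 8 in the first, and binding under these counts could not be called.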

Other observations

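Few members differed greatly between the lines in reads at the summit. The rule limits such differences, since a member had to pass in both libraries. The ratio of OCI-Ly1 replicate 2 to VAL replicate 2 reads had a median of 1.09 over 1973 members, 3-fold or more higher in OCI-Ly1 at 19 and in VAL at 3. At sites of all 3 libraries the median was 1, with 7 on each side.

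Short motifs of other factors were counted at promoter members without a test. GGGCGG, bound by SP and KLF factors, lay within 50 bp of 38.4% of summits against 35.8% of windows on coding start sites, and CCAAT, bound by NF-Y, at 7.49% against 9.35%. TATAAA lay at 0.885% against 5.18%, and TGTGGTT, bound by RUNX factors, at 1.18% against 0.980%. At the 280 distal members TGTGGTT lay at 5.71% (3.55 to 9.08%), with 16 sites. It lay at 3.06% of the 98 distal sites of all 3 libraries and at 1.83% of distal sites of VAL replicate 2 alone. These motifs were sought on both strands, and start site windows are centred on the start while summits are not.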
